A study of Mus musculus with 12 samples.

Results

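The mu-class glutathione transferases of the mouse are encoded by 7 genes, Gstm1 to Gstm7, which lie side by side on chromosome 3. They were followed here on 12 arrays of hematopoietic stem cells, the rare marrow cells that renew all blood lineages. The members were taken as the probe sets whose annotated symbol is one of the 7 names, which gave 8 probe sets of 35474 and 7 genes of 19935. Gstm3 had 2 probe sets and every other member 1, and 0 of the 8 carried the symbol of another gene as well. The family was picked because Gstm1 and Gstm3 were lower after estradiol (E2), so the E2 values of all members are given as a description with no test. The 4 groups were E2-treated males, oil-treated males, E2-treated females and oil-treated females, with 3 arrays from 3 mice in each. E2 mice received 2 µg of estradiol in 100 µL of corn oil under the skin and control mice 100 µL of corn oil alone. All mice were 2 to 3 months old, and the study sorted 5000 to 7000 cells per sample as lineage-, Sca-1+, c-kit+, CD48- and CD150+. Strain and treatment duration are unstated in the labels. Values are linear probe set intensities processed by the authors, and 3 arrays per group limit their precision. Probes of a probe set differ from those of another, so amounts of transcript are compared between groups and not between probe sets. Intensity is compared between probe sets only to choose 1 per gene, to filter dim genes and to call some brighter or dimmer.

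Cytosolic glutathione transferases join the tripeptide glutathione to electrophilic compounds, which makes drugs, carcinogens and products of lipid peroxidation more soluble and easier to export. The mu class is one of several classes of these dimeric enzymes, beside the alpha, pi, theta and omega classes. Mu-class genes are best known from the liver, where foreign compounds can induce them. Their transcripts are much alike, and cross-hybridisation between members was not tested here, since probe sequences were not used.

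The sequences before the starts of Gstm1 and Gstm3, the members with the lowest E2 levels relative to oil, and of Gstm5, the member at one end of the cluster that runs on the opposite strand, are shown to set them beside one another. They are RefSeq sequences of build GRCm38.p6, each 250 bases directly upstream of the gene's outermost annotated start, read in the gene's own direction. The windows are chr3:108017974-108018223 on the minus strand for Gstm1, chr3:107969175-107969424 on the minus strand for Gstm3 and chr3:107895604-107895853 on the plus strand for Gstm5. Capitals mark matches to the motifs searched.
Gstm1: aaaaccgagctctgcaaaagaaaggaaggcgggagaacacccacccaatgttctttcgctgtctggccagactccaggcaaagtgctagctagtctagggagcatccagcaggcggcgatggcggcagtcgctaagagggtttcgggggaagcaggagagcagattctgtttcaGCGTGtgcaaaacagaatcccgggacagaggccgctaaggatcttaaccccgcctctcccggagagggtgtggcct
Gstm3: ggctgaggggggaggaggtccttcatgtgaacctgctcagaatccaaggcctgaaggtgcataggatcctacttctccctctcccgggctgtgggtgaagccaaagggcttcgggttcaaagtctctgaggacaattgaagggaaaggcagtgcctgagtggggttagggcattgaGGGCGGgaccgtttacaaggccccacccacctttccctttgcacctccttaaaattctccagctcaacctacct
Gstm5: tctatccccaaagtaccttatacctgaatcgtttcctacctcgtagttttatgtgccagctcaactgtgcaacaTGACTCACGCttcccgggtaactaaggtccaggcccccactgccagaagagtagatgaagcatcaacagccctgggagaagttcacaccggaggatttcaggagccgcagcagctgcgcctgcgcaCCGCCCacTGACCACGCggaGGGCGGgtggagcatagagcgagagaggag
The motifs were searched on both strands in the 12 upstream windows that RefSeq lists for the 7 genes and in all 32851 windows of the same length. The estrogen response element, GGTCA and TGACC with 3 free bases between them, matched 21 windows (0.0639%) and 0 of the 12 family windows, and the receptor half-site AGGTCA matched 14.0% of windows and again 0 of the 12. The antioxidant response core TGACNNNGC matched 10.2% of all windows and 2 of the family, 1 each of Gstm5 and Gstm7. The AP-1 site TGANTCA matched 6.75% of all windows and only that of Gstm5 in the family. The xenobiotic response core GCGTG matched 28.2% of all windows and 3 of the family, from Gstm1 and Gstm5. The 2 Gstm1 windows overlap and hold the same site, 76 and 231 bases before their starts. The GC box GGGCGG matched 32.7% of all windows and 5 of the family, from Gstm3, Gstm4, Gstm5 and Gstm7. The matched Gstm4 windows also overlap and hold the same sites. In the printed windows, Gstm1 has a GCGTG 76 bases before the start and Gstm3 a GGGCGG 74 bases before it. In Gstm5 the AP-1 match at 176 bases and the antioxidant core at 42 bases each overlap a GCGTG match read on the opposite strand. A match of letters is a description and not a binding site.

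Gstm1, which in mouse liver is a major mu-class enzyme, had E2 intensities well under those with oil in both sexes. It read 838, 826 and 757 on the 3 male E2 arrays, against 1812, 2128 and 2049 on the male oil arrays. In females it read 678, 727 and 819 with E2, against 1861, 1942 and 1808 with oil. The highest E2 array lay below the lowest oil array in each sex. The E2 mean was 807 ± 43.6 in males (SD, n = 3), which was 40.4% of the oil mean of 1996 ± 164. In females the E2 mean was 741 ± 71.4, or 39.6% of the oil mean of 1871 ± 67.6. On the log2 scale the E2 minus oil difference was -1.30 in males and -1.34 in females, each with a standard error of 0.0938. Here and below, these limma standard errors pool the spread of all 4 groups. They are therefore equal in both sexes and are not each sex's own precision. In a bulk sort, fewer cells that carry a transcript and less of it per cell cannot be told apart.

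Gstm3, another enzyme of the class, read lower with E2 on both of its probe sets. The brighter probe set read 192, 196 and 164 on the male E2 arrays, against 326, 553 and 420 on the male oil arrays. On the female arrays it read 161, 157 and 132 with E2, against 421, 460 and 401 with oil. The groups of each sex were again apart, and the male oil arrays spread more widely than the other groups. Means were 184 ± 17.7 with E2 and 433 ± 114 with oil in males, and 150 ± 15.7 with E2 and 427 ± 30.2 with oil in females (SD, n = 3 each). The E2 means were thus 42.6% and 35.1% of the oil means of males and females, with log2 differences of -1.20 and -1.51 (standard error 0.156 each). Without male oil replicate 1 the male log2 difference was -1.39, and without male oil replicate 2 it was -1.01.

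The second probe set of Gstm3 was dimmer. It read 86.0, 113 and 90.1 with E2, against 147, 209 and 154 with oil in males. The female values were 73.9, 73.3 and 70.9 with E2, against 152, 202 and 160 with oil. Its log2 differences of -0.80 and -1.21 were closer to 0 than those of the brighter probe set in both sexes, and its E2 arrays too lay below all oil arrays of their sex. Its mean over the arrays fell under the filter on dim genes, an intensity of 182 that is the median over genes, and it did not stand for Gstm3 in any test, since the brighter probe set did.

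**Figure D1:**
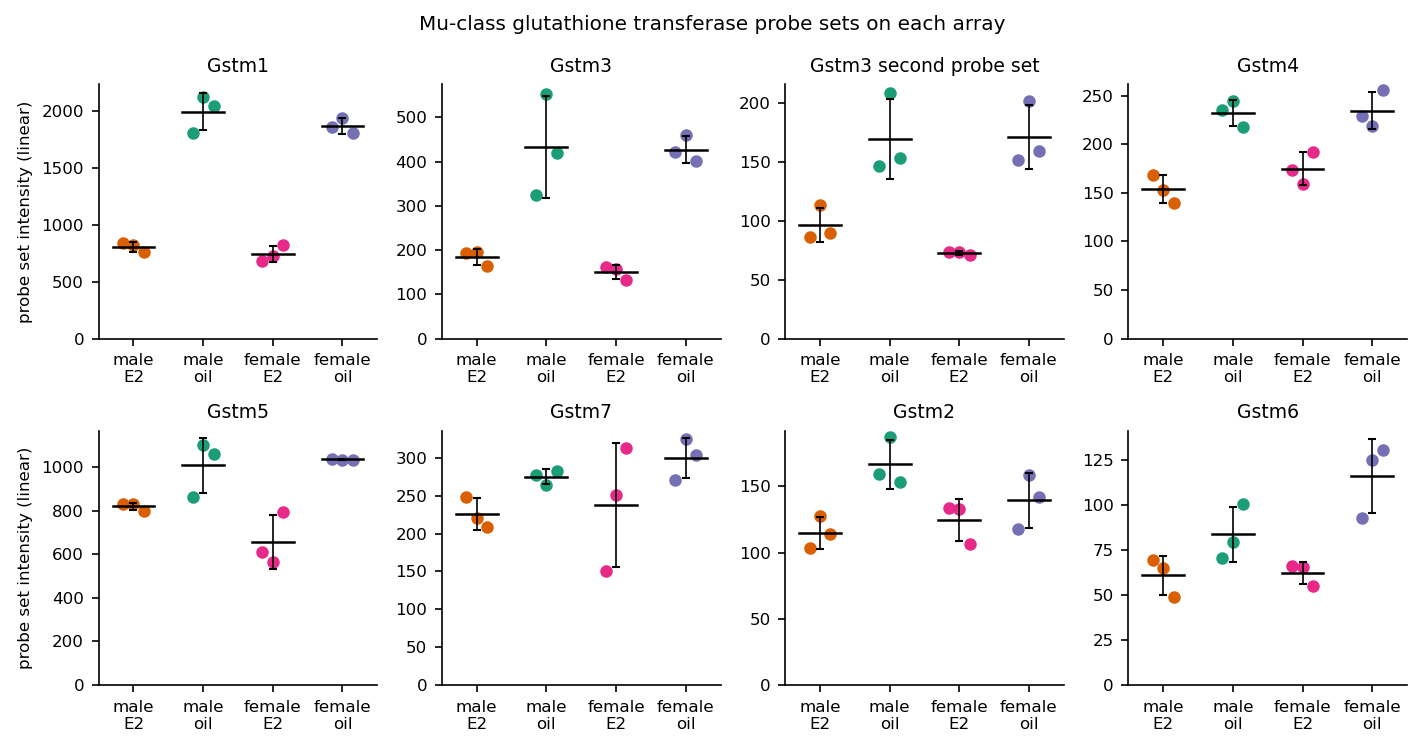
Probe set intensity (linear, each panel on its own scale from 0) of the 8 mu-class probe sets on each array of E2 and oil males and E2 and oil females. Points are arrays, bars the mean with the SD of 3 arrays; Gstm1 and both Gstm3 probe sets have E2 arrays far below the oil arrays in both sexes, while Gstm7 and Gstm2 overlap in females.

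The other members lay lower with E2 as well, by smaller amounts. Gstm4 read 169, 153 and 140 with E2, against 235, 245 and 218 with oil in males. Among females the values were 173, 159 and 193 with E2, against 229, 219 and 256 with oil. Its E2 means were 66.1% of the oil mean in males and 74.6% in females, and neither sex had overlapping arrays. The log2 difference was -0.60 in males and -0.42 in females (standard error 0.101 each).

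Gstm5, at the end of the cluster and on the other strand, read 830, 828 and 798 with E2, against 863, 1100 and 1060 with oil in males. In females it read 608, 562 and 794 with E2, against 1038, 1032 and 1032 with oil. The E2 arrays lay below the oil arrays in both sexes, but in males the closest arrays of the 2 groups, 830 and 863, were near each other. The E2 mean was 81.2% of the oil mean in males and 63.3% in females, with log2 differences of -0.29 and -0.67 (standard error 0.122 each).

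Gstm7 had the widest spread of the 5 tested members. It read 249, 220 and 208 with E2, against 278, 264 and 283 with oil in males. Female arrays read 150, 252 and 313 with E2, against 271, 325 and 304 with oil. The female groups overlapped, since the highest E2 array lay above the lowest oil array. The log2 difference was -0.29 in males and -0.39 in females (standard error 0.193 each), and the female value was -0.09 without female E2 replicate 1 and -0.62 without female E2 replicate 3. Averaged over the sexes it was -0.34, and -0.19 without female E2 replicate 1.

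Gstm2 and Gstm6 were dim, with means under the filter, and so entered no test. Gstm2, whose human counterpart GSTM2 detoxifies aminochrome made from dopamine, read 103, 128 and 114 with E2, against 160, 188 and 153 with oil in males. Female arrays gave 134, 133 and 107 with E2, against 118, 159 and 142 with oil. The male arrays were apart and the female arrays overlapped. Its female log2 difference was -0.16, and it was -0.05 when female E2 replicate 3 was left out, -0.06 when female oil replicate 2 was and -0.27 when female oil replicate 1 was.

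Gstm6 read 69.4, 64.8 and 48.8 with E2, against 70.7, 79.4 and 101 with oil in males. In females it read 66.0, 65.5 and 55.1 with E2, against 92.8, 125 and 131 with oil. Its groups did not overlap in either sex, although the highest male E2 array and the lowest male oil array were 69.4 and 70.7. The log2 difference was -0.45 in males, where it was -0.30 without male E2 replicate 3, and -0.88 in females.

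Across the family, all E2 arrays lay below all oil arrays for 8 of the 8 probe sets in males, a pattern that 7.96% of all probe sets showed. In females this held for 6 of 8, against 6.71% of all probe sets, and in both sexes for the same count of 6, against 1.92%. The exceptions were Gstm2 and Gstm7 in females. Since the family was chosen on this contrast, nothing is read from these counts. Of the 7 genes, 5 had a mean over all arrays above the filter, among 9967 genes in all. Gstm4 was above it through its oil arrays, since its E2 means of 154 ± 14.6 in males and 175 ± 16.7 in females (SD, n = 3 each) were under 182. The female E2 mean of Gstm3 was under it as well. The order of the averaged log2 differences was Gstm3 at -1.35 ± 0.111, Gstm1 at -1.32 ± 0.0663, Gstm4 at -0.51 ± 0.0716, Gstm5 at -0.48 ± 0.0865 and Gstm7 at -0.34 ± 0.137 (estimate ± SE). Gstm3 and Gstm1 lay closer together than either standard error, and so did Gstm4 and Gstm5.

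Arrays of a group did not all rank alike over the family. Male E2 replicate 3 was the lowest of its group for 6 of the 8 probe sets and male E2 replicate 1 the highest for 5. Among male oil arrays, replicate 2 was the highest for 6 and replicate 1 the lowest for 5. Female oil replicate 2 was the highest of its group for 5. The female E2 arrays had a larger root mean square deviation from their group mean over all genes (log2 0.169 to 0.200) than the other 9 arrays (0.0993 to 0.127). The part of this spread in the female values was not tested. Median intensities of the arrays lay between 143 and 159, and Xist and Y-linked genes matched the sex label on all 12 arrays.

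Whether the E2 difference itself depended on sex was tested, since the family was not picked on that contrast. The female response minus the male response passed the threshold, an adjusted p under 0.05 over all 9967 genes in limma, for none of the 5 tested members, and 0.0100% of tested genes passed it. For Gstm1 the difference was -0.03 on the log2 scale (95% interval -0.32 to 0.25, adjusted p 0.988). The interval for Gstm3 ran from -0.79 to 0.17 around -0.31, with an adjusted p of 0.954. Gstm4 had 0.17, with an interval from -0.13 to 0.48 and an adjusted p of 0.954. Gstm5 came nearest, at -0.38 with an interval from -0.76 to -0.0099, an unadjusted limma p of 0.0450 and an adjusted p of 0.929. Gstm7 had -0.11, and its interval from -0.69 to 0.48 was the widest of the 5. Leaving out single arrays moved these values. The Gstm7 value turned to 0.19 without female E2 replicate 1 and was -0.33 without female E2 replicate 3. That of Gstm1 ran from -0.11 without female E2 replicate 3 to 0.03 without male oil replicate 1, and was also above 0 without female E2 replicate 1 and under quantile normalization. The Gstm3 value was -0.50 without male oil replicate 2 and -0.12 without male oil replicate 1. A p above the threshold does not show that the responses were equal.

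Levels averaged over the treatments did not pass the threshold between the sexes either, for any of the 5 members, and 0.0401% of tested genes passed, 0.0301% being higher in females. Female minus male was -0.11 for Gstm1 (95% interval -0.25 to 0.03, adjusted limma p 0.684) and -0.14 for Gstm3 (-0.38 to 0.10, adjusted p 0.758). Gstm5 was at -0.15 (-0.33 to 0.04, adjusted p 0.673). Gstm4 and Gstm7 were on the other side of 0, at 0.10 (-0.06 to 0.25, adjusted p 0.742) and 0.07 (-0.23 to 0.36, adjusted p 0.926). The Gstm7 value was -0.04 without female E2 replicate 3 and 0.22 without female E2 replicate 1. For Gstm3 it was -0.24 without male oil replicate 1 and -0.04 without male oil replicate 2.

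**Figure D2:**
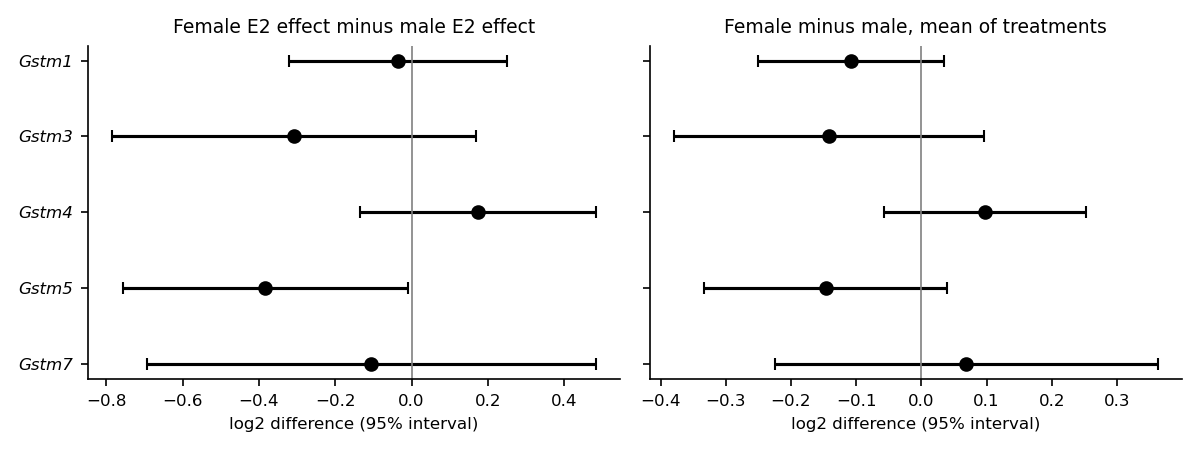
Left, female E2 minus oil response minus the male one; right, female minus male level averaged over treatments, for the 5 tested members (log2 difference on the x axis). Points are limma estimates and bars 95% intervals without adjustment; the Gstm5 interval at left ends at -0.0099 and all others span 0.

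The genes around the cluster on chromosome 3 had E2 differences nearer to 0 than those of Gstm1 and Gstm3, in both sexes. Since the family was picked on Gstm1 and Gstm3, nothing is read from that contrast. Averaged over the sexes, Gstm7 at -0.34 was near the lowest of the neighbours at -0.28. Of the 12 tested genes taken as neighbours, 6 on each side in RefSeq order, 1 was called lower and 0 higher in the comparison averaged over the sexes, where 8.90% of all tested genes were called, 5.78% lower and 3.12% higher. The median of their averaged log2 differences was -0.06, against -0.01 over all tested genes. The called neighbour was Cyb561d1, a cytochrome b561 family gene, at -0.28 ± 0.0699 (adjusted limma p 0.0250). Its call was lost without male oil replicate 1, male E2 replicates 1 or 2, or female oil replicates 2 or 3, with adjusted p up to 0.0720, and with no filter. In males it was at -0.29, as were Gstm7 and Gstm5. The nearest tested genes were Ahcyl1, a regulator of the inositol trisphosphate receptor, at -0.03, and Ampd2, an AMP deaminase, at -0.05, and neither was called. Genes between these and the cluster that were under the filter or had no probe set of their own were not tested. Farther out, Rbm15 was at 0.10, Lamtor5 at -0.06, Gnat2 at -0.02 and Gnai3 at -0.06. Cym, at -0.24, and AI504432, at -0.19, had larger differences that did not pass the test. In single sexes, 0 of the 12 were called in males, where 1.43% of all tested genes were called (0.863% lower and 0.572% higher). In females 0 were called, where 3.56% were (2.75% lower and 0.813% higher). Over all genes in females, 274 were called lower and 81 higher, a split that became 358 lower and 45 higher after centring arrays on their medians.

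**Figure D3:**
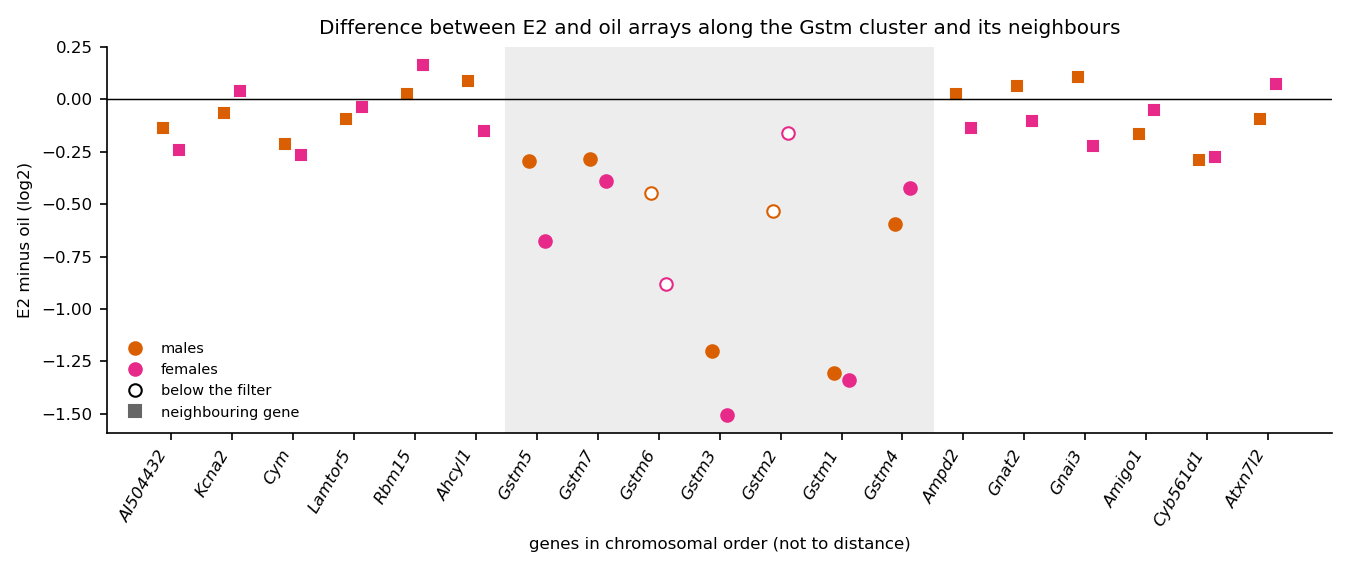
E2 minus oil on the log2 scale for the 7 mu-class genes (shaded) and 6 tested neighbours on each side, in chromosomal order and not to distance, for males and females. Circles are mu-class genes (open where under the filter) and squares neighbours; Gstm3 and Gstm1 lie below -1 in both sexes, and neighbours lie between about the level of Gstm7 and the zero line or just above it.

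Glutathione transferases of other classes were called at about the rate of all genes. Of 22 such genes listed, 18 had a probe set of their own and 11 passed the filter. In the averaged comparison 1 of the 11 was called lower and 0 higher, with a median log2 difference of -0.08 and a range from -0.43 to 0.04. Over all tested genes 5.78% were called lower and 3.12% higher. The count of lower calls was 2 under quantile normalization, an offset of 16, averaged probe sets, robust eBayes and array weights. It was also 2 without male oil replicate 1, female E2 replicate 1 or female E2 replicate 3, and 3 at an adjusted p under 0.1. The called gene was Gstt1, a theta-class enzyme that acts on small halogenated compounds. It averaged 192 ± 17.7 with E2 and 266 ± 19.6 with oil in males, and 201 ± 39.4 with E2 and 262 ± 25.1 with oil in females (SD, n = 3 each). Its averaged log2 difference was -0.43 ± 0.0910 (adjusted limma p 0.0108), and it was called without any 1 of the 12 arrays.

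Glutathione synthesis, breakdown and transport gave 13 tested genes of 28 listed, with 0 called lower, 1 higher and a median of -0.0045, beside 5.78% lower and 3.12% higher over all tested genes. The count of lower calls was 1 with a filter at the 25th percentile, at an adjusted p under 0.1, and without male oil replicate 1 or female E2 replicate 3. Ggct, which opens gamma-glutamyl peptides in glutathione breakdown, averaged 480 ± 58.6 with E2 and 386 ± 49.7 with oil in males. In females it averaged 463 ± 78.7 with E2 and 343 ± 37.3 with oil. Its averaged log2 difference was 0.37 ± 0.101 (adjusted limma p 0.0389). Gclc and Gclm, the catalytic and modifier subunits of the rate-limiting ligase of glutathione synthesis, were at 0.01 (adjusted limma p 0.960) and 0.06 (adjusted p 0.728).

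Among 14 tested enzymes of 22 listed that use or restore glutathione, 1 was called lower and 2 higher, with a median of 0.02, beside the same 5.78% and 3.12% over all tested genes. Gpx1, the cytosolic glutathione peroxidase that reduces hydrogen peroxide, was at 0.23 ± 0.0611 (adjusted limma p 0.0314). It averaged 5481 ± 286 with E2 and 4456 ± 112 with oil in males, and 5336 ± 466 with E2 and 4729 ± 245 with oil in females. Glrx3, a glutaredoxin with a role in iron-sulfur cluster assembly, was at 0.24 ± 0.0684 (adjusted p 0.0425). Idh1, a cytosolic source of NADPH, was at -0.38 ± 0.0855 (adjusted p 0.0153), and was called without any 1 of the 12 arrays.

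The NRF2 pathway, in which KEAP1 holds back the factor that switches on many detoxification genes, gave 18 tested genes of 24 listed. In the averaged comparison 1 was called lower and 0 higher, with a median of -0.05, again near the share of 5.78% lower over all tested genes. Nfe2l2, which encodes NRF2, was at -0.08 (adjusted limma p 0.591) and Keap1 at -0.11 (adjusted p 0.342). The called gene was Slc48a1, a heme transporter, at -0.27 ± 0.0735 (adjusted p 0.0360). Nqo1, a quinone reductase and standard NRF2 target, was under the filter and was not tested. Its arrays ran from 93.3 to 95.4 with E2, against 85.8 to 120 with oil in males, and from 97.0 to 139 with E2, against 94.7 to 99.3 with oil in females, so the groups overlapped in both sexes. In females alone, 2 genes of the NRF2 list were called lower, Slc48a1 (adjusted limma p 0.0447) and Taldo1, a transaldolase of the pentose phosphate pathway (0.0453), where 2.75% of all tested genes were called lower. Both were near the threshold, and whether these female calls held without single arrays was not examined. A fit of the female groups alone called 67 genes, against 355 in the fit of all arrays. In males 0 of the genes of these 4 lists were called, where 1.43% of all tested genes were.

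Several of these calls were lost when a single array was left out. That of Ggct was lost without male oil replicates 1 or 2, male E2 replicates 2 or 3, female oil replicates 2 or 3, or female E2 replicates 1 or 2, with adjusted p up to 0.10. Gpx1 lost its call without any male array, female oil replicates 2 or 3, or female E2 replicate 2 (up to 0.0786). Glrx3 lost it without male oil replicates 1 or 2, any male E2 array, female oil replicates 2 or 3, or female E2 replicates 1 or 2 (up to 0.110). Slc48a1 lost it without male oil replicates 2 or 3, any male E2 array or any female oil array (up to 0.0920). With the replicate number as a block, with arrays centred on their medians, with no filter and with a filter at the 25th percentile, Ggct, Gpx1, Glrx3 and Slc48a1 were not called, and Gpx1 also lost its call under quantile normalization.

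**Figure D4:**
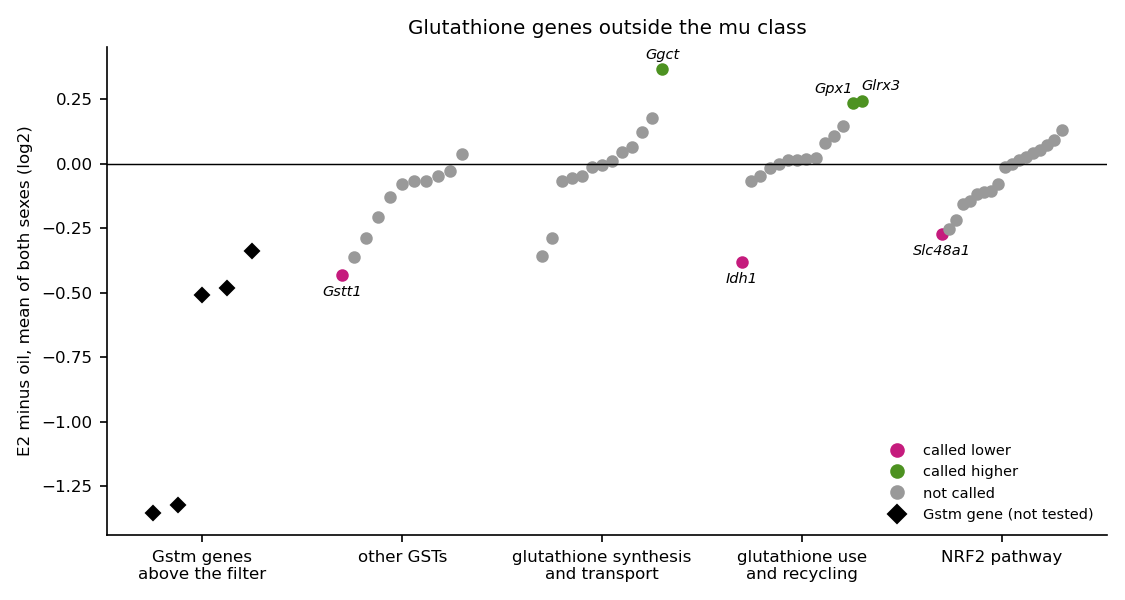
Averaged E2 minus oil difference (log2, y axis) of the 5 mu-class genes above the filter (diamonds, no test) and of the tested genes of 4 lists, each ordered by value. Coloured points were called in limma; Gstm3 and Gstm1 lie near -1.3, while the 4 lists run from -0.43 to 0.37.

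Markers of the sorted cells and of other blood cells were read beside these values. Of the 9 stem cell markers listed, 8 had a probe set of their own, none was at 0, and their summed intensity ran from 8504 to 8833 with E2 and 9538 to 9656 with oil in males. In females the sum ran from 7513 to 8667 with E2 and 8633 to 9427 with oil. Of these 8, all tested, 2 were called lower and 0 higher in the averaged comparison, and 6 were not called. Over all tested genes 5.78% were called lower and 3.12% higher. The averaged log2 differences of the 8 ran from -0.47 to 0.13. The called genes were Kit, the stem cell factor receptor (-0.32, adjusted limma p 0.00230), and Procr, the endothelial protein C receptor (-0.47, adjusted p 0.000537). Megakaryocyte markers were lower with E2 for the most part. Beside the 5.78% of all tested genes called lower and 3.12% called higher, these had 4 of 5 tested called lower and 1 higher, with Pf4, a platelet chemokine, at -1.40, Plek, a platelet kinase substrate, at -1.33, Gp5 at -0.77, Itga2b at -0.44 and Gp9 at 0.51. The sum of the 6 with their own probe set, of 9 listed, ran from 2306 to 2658 with E2 and 3129 to 3496 with oil in males, and from 1676 to 2454 with E2 and 3199 to 3429 with oil in females. Progenitor markers had 3 of 4 tested called lower, namely Flt3, Cd34 and Satb1, where 5.78% of all tested genes were called lower. That count was 1 with no filter or without male oil replicate 2, male E2 replicates 2 or 3, or female oil replicate 3. The E2 means of Flt3 (145 in males, 137 in females) and Satb1 (176 and 163) were under 182, so both passed the filter through their oil arrays. The female E2 mean of Plek, 154, was under 182 as well. The sum over 7 of 7 progenitor markers ran from 2872 to 3054 with E2 and 3382 to 3796 with oil in males, and from 2539 to 2926 with E2 and 3236 to 3794 with oil in females.

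Of the T and NK cell markers, 1 of 3 tested was called lower, Nkg7, a granule membrane protein, at -1.67, where 5.78% of all tested genes were called lower. The E2 means of Nkg7, 165 in males and 173 in females, were under 182, so it passed the filter through its oil arrays. The sum over 10 of 10 T and NK cell markers ran from 1092 to 1187 with E2 and 1404 to 1611 with oil in males, and from 1154 to 1234 with E2 and 1380 to 1563 with oil in females. Without Nkg7 the sum of the other 9 overlapped in both sexes, at 922.5 to 1011 with E2 and 886 to 1098 with oil in males, and 934 to 1116 with E2 and 899 to 984 with oil in females. The only tested B cell marker, Cd79b, was called lower at -0.41, and the sum of 7 of 8 B cell markers ran from 789 to 952 with E2 and 910 to 1278 with oil in males, and from 766 to 861 with E2 and 1028 to 1167 with oil in females. Granulocyte markers had 1 of 8 called lower, Prtn3, and sums that overlapped between E2 and oil in each sex. The sum over 10 of 10 ran from 7361 to 13333 with E2 and 7960 to 16927 with oil in males, and from 5445 to 14748 with E2 and 9494 to 21643 with oil in females. Erythroid markers had 1 of 3 called higher, Tfrc, the transferrin receptor, where 3.12% of all tested genes were called higher, and overlapping sums, over 6 of 9 markers, of 2831 to 3215 with E2 and 2598 to 3061 with oil in males, and 2945 to 3524 with E2 and 2585 to 3443 with oil in females. No mast cell or basophil marker passed the filter. With no filter, 2 of the 7 were called lower in the averaged comparison, where 568 of all 19935 genes were called in either direction. The sum over 7 of 7 ran from 444 to 469 with E2 and 526 to 553 with oil in males. In females it ran from 448 to 526 with E2 and 468 to 589 with oil. No marker of any list was at 0. The calls of Kit, Procr, Pf4, Plek, Gp5, Itga2b, Flt3 and Nkg7 held without any 1 of the 12 arrays. That of Gp9 was lost without male E2 replicate 3 (adjusted limma p 0.0505) and that of Cd79b without male E2 replicate 2 (0.0574). Cd34 lost it without male oil replicate 2, male E2 replicates 2 or 3 or female oil replicate 3 (up to 0.0681). Satb1 lost it without male oil replicates 2 or 3, male E2 replicates 2 or 3, any female oil array or female E2 replicate 2 (up to 0.0769). Prtn3 lost it without male oil replicate 2, any male E2 array, female oil replicates 1 or 2 or female E2 replicate 2 (up to 0.0842). Tfrc lost it without any male oil array, male E2 replicates 2 or 3, female oil replicates 2 or 3 or female E2 replicates 1 or 2 (up to 0.125). With no filter, Prtn3, Tfrc, Cd34 and Satb1 were not called. Prtn3 and Tfrc were also lost with median centring and with the replicate block, and Tfrc with a filter at the 25th percentile and with array weights. The part of these cells in the mu-class values was not tested.

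The array-by-array pattern of Gstm1 was nearest to that of Gstm3 among all tested genes. Likeness was the root mean square difference of log2 values, each gene centred on its own mean, over the 12 arrays, and it was 0.180 for this pair against a median of 0.676 between Gstm1 and all other tested genes. Since the E2 difference makes up most of each pattern, likeness here is a description. Outside the family, the genes nearest to Gstm1 were Sox6, a transcription factor (0.227), Flt3, a cytokine receptor of early progenitors (0.229), Trf, the iron carrier transferrin (0.235), Ndrg1, a stress-response gene (0.251), and Apoe, a lipid carrier (0.254). Nearest to Gstm3 were Ndrg1 (0.240), Flt3 (0.244), Plek (0.277), Sox6 (0.282) and Mdga1, a membrane-anchored adhesion protein (0.283). Their averaged E2 minus oil differences were between -0.88 for Apoe and -1.33 for Plek. The E2 means of Sox6 (171 in males, 147 in females) and Trf (167 and 146) were under 182. Both were thus among the tested genes through their oil arrays, as was Flt3. The female E2 mean of Mdga1, 160, was under 182 as well. Ndrg1 averaged 311 ± 30.5 with E2 and 754 ± 81.2 with oil in males, and 252 ± 62.8 with E2 and 612 ± 37.7 with oil in females (SD, n = 3 each). Other members were farther off. To Gstm1, Gstm4 ranked 93rd and Gstm5 94th of 9966 genes, at 0.435 each, and Gstm7 ranked 448th at 0.534.

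**Figure D5:**
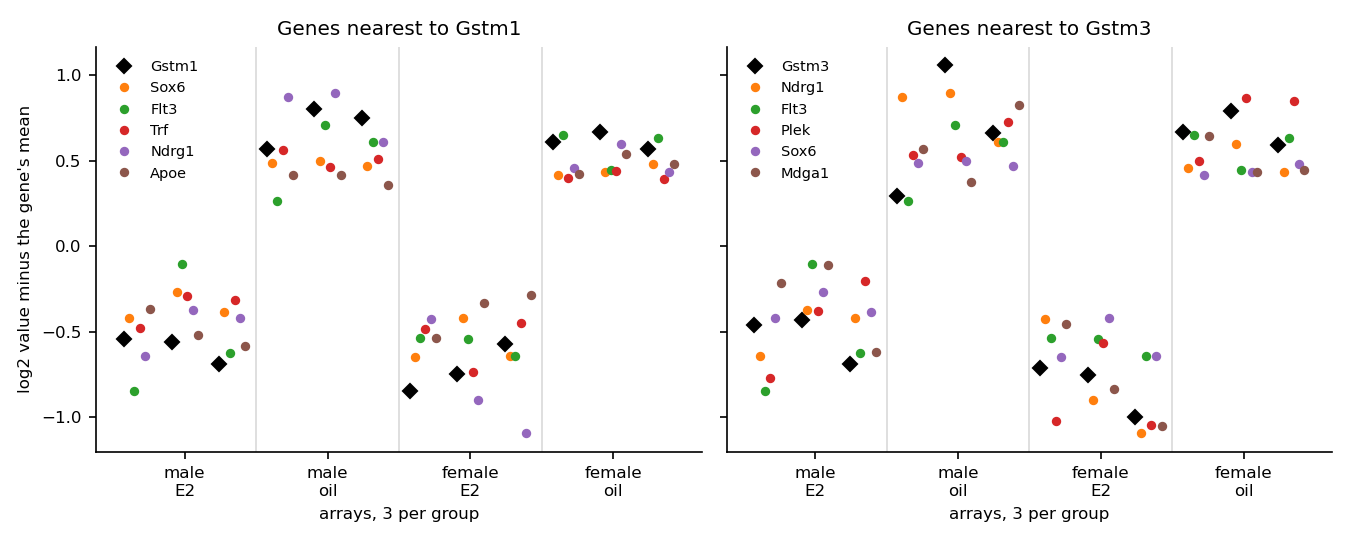
Log2 value minus the gene's own mean (y axis) on each of the 12 arrays, in E2 and oil males and E2 and oil females, for Gstm1 (left) and Gstm3 (right) with the 5 nearest genes outside the family. Diamonds are the mu-class gene and circles the others; E2 arrays lie below 0 and oil arrays above 0 for all genes shown.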

How the data were processed

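The authors deposited, per probe set and array, a linear intensity value. These cover 12 arrays and 35474 probe sets, from RNA amplified with the NuGEN Ovation Pico system and labelled with biotin, per the labels' protocols. What the authors did for background correction, summarisation and normalization, and the software, is not given in the sources used here.

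Symbols came from the platform annotation. A single symbol was given for 21780 probe sets, which covered 19935 genes. Another 1605 had more than 1 symbol, and 12089 lacked one, and both kinds were set aside. Each gene was represented by its brightest probe set. Values were log2 of intensity plus 1. The filter kept 9967 genes with a mean above the median of genes (log2 7.52). limma 3.58.1 in R 4.3.3 fitted 1 mean per group to all arrays, with eBayes (8 residual and 5.38 prior degrees of freedom), 2-sided tests and Benjamini-Hochberg adjustment over all genes, called at 0.05. No p-value for members is given for E2 comparisons, since the members were picked on them. An exact permutation of 3 arrays against 3 cannot go below p = 0.1.

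The named genes were all members, up to 4 called genes with the smallest p per pathway list, Nfe2l2, Keap1, Nqo1, Gclc and Gclm, 6 tested neighbours on each side, called markers, and the 5 genes nearest in pattern to Gstm1 and to Gstm3. The order of neighbours and the upstream sequences came from RefSeq (GRCm38.p6). Members and lists were chosen with earlier results of these data known. The steps were tested on simulated data. Python 3.11.15 with matplotlib 3.10.9 drew the figures. Replicates come from separate mice per the series' design, and no array was removed. Same-numbered arrays of different groups were not taken as pairs. Their deviations correlated over 0.1 in 4 of 18 pairs, with values from -0.26 to 0.20, which does not settle whether they were processed together.

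Other settings tried were an offset of 16, median centring or quantile normalization, the filter dropped or set at the 25th percentile, a gene's probe sets averaged or each tested singly, robust eBayes with a trend, weights per array, fits of the compared groups alone, a threshold of 0.1, a replicate block and leaving out each array.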

Additional observations from a re-analysis of the deposited data

How the results depend on the processing

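Over 12 settings and 12 fits each without 1 array, all 556 alternative E2 minus oil values of the 8 probe sets stayed below 0. Many of them could not move, since changes of filter, eBayes or threshold leave the estimate as it is. An array left out of a sex does not enter the other sex's value either. The family was also picked on this contrast, so nothing is read from that count. None of the 228 alternative tests of members in the response difference or between the sexes passed the threshold. Counts of called genes moved more. With no filter, 80 genes were called in males, 183 in females, 568 averaged over the sexes and 7 between the sexes, against 143, 355, 887 and 4. A filter at the 25th percentile called 7 between the sexes. Testing all probe sets gave 24, 41, 350 and 7. Array weights gave 409 in males, 226 in females and 11 between the sexes. Fits of only the groups compared gave 390 in males and 67 in females. An adjusted p under 0.1 gave 264 in males, 657 in females and 1459 averaged. With the replicate number as a block, 103 genes were called in males, 258 in females, 736 averaged, 1 in the response difference and 2 between the sexes, although the numbers are not known to pair the mice. Leaving out each array gave 62 to 327 calls in males, 115 to 549 in females, 476 to 1147 averaged, 1 to 2 in the response difference and 2 to 21 between the sexes. The cause of these shifts was not tested. No background level comes with the values, so the share of background in dim probe sets, such as Gstm2, Gstm6 and the second of Gstm3, is unknown.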
